A study of Mus musculus with 4 samples.

Results

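The cells described here are the CD4 T cells of germ-free and colonized Foxp3CNS1- mice, compared with each other cluster by cluster. They were taken from mesenteric lymph nodes (mLN), which drain the intestine, and the RNA of single cells was read with the 10x 3′ v3 kit. They are the cells of these 2 libraries that passed the authors' filter and carry one of the authors' cluster numbers 0 to 8. There were 8898 such cells, 3516 germ-free and 5382 colonized, of 16948 filtered cells in the 4 libraries of the series. Cluster 9 had 17 germ-free and 24 colonized cells, under the minimum of 50 cells per library, and was not compared. The question was which differences between colonized and germ-free cells recurred across clusters and which were found in 1 cluster.

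Both groups are male mice that lack CNS1, so the control carries the deletion as well, and by the labels they differ in their microbiota. One group stayed germ-free and the other was studied on day 9 after it was given the fecal microbiota of SPF (specific-pathogen-free) mice. Each group is 1 library made from the pooled lymph nodes of 3 mice, into which GFP-positive and GFP-negative CD4 T cells were sorted at 50% each, with about 5000 cells targeted. Germ-free and colonized Foxp3GFP mice, which keep CNS1, gave 3954 and 4012 cells in the same clusters and serve below as a second pair of libraries that shares no sample with the first. No group has a replicate. Mouse, library and microbiota cannot be told apart, no test was possible, and every interval below is an exact 95% interval that covers counting error only.

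CNS1 is an enhancer within an intron of Foxp3 that takes part in switching Foxp3 on in T cells outside the thymus, downstream of TGF-beta. Foxp3 is the transcription factor that defines regulatory T (Treg) cells, which in the gut restrain responses to food and microbes. Microbes also drive the release of type I interferon, which acts through its receptor on interferon-stimulated genes in nearly every cell type. Since the libraries count the 3′ ends of transcripts, the Foxp3 counts hold no information on CNS1 and are no check of the genotype.

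The clusters were made by the authors from the genes of these same cells, and colonized and germ-free cells of 1 cluster may differ in their mix of subtypes as well as in RNA per cell, which cannot be told apart. Cluster 0 was called Treg-like, with 6 of 10 Treg markers over 1.5-fold above the other cells and 2 of them among its 10 leading genes. Clusters 1 and 2 were called naive-like, each with 7 of 8 naive markers, and cluster 5 effector/memory-like, with 10 of 10. Cluster 8 had all 8 proliferation markers. Cluster 3 had all 10 Treg markers over 1.5-fold but none among its leading genes, and clusters 3, 4, 6 and 7 are given by number. The 6 CD4 T cell markers were present in every cluster of both libraries, with a summed level of 5372 to 9063 CPM (UMI counts scaled to a common total of UMIs for each cluster and library). With both libraries together, the Treg markers summed to 6774 CPM in cluster 3, against 3778 in cluster 0 and 3776 in cluster 6. The name Treg-like thus does not mark the cluster with the highest Treg marker level. CD8 markers summed to at most 43.0 CPM, NK and innate markers to at most 41.2 CPM, and the 1 red cell marker in the table was at 0. Myeloid and dendritic markers were higher, at 105 to 681 CPM, the latter in colonized cells of cluster 3. In clusters 4, 5 and 8, 3 of them were over 1.5-fold above the other cells. Stroma and epithelium markers summed to 46.3 to 136.5 CPM. The 9 B and plasma cell markers summed to 279 to 1100 CPM outside cluster 3, and to 2148 germ-free and 5755 colonized CPM in cluster 3.

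Colonized cells were more deeply sequenced in each of the 9 clusters. The germ-free library had 9360112 UMIs in 3533 filtered cells with a median of 2286, and the colonized library had 17929193 UMIs in 5406 cells with a median of 2764. Within clusters the medians ran from 1839 to 5250 UMIs in germ-free and from 2259 to 7392 in colonized cells. A gene was measured in a cluster when both libraries together held at least 50 of its UMIs, and its log2 ratio is that of colonized over germ-free CPM, so that 1 means 2-fold higher in the colonized library. In the largest cluster, cluster 0, with 718 germ-free and 1185 colonized cells, 7157 genes were measured. In the smallest, cluster 7, with 166 and 111 cells, 2287 were.

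Few genes passed 2-fold in any cluster. In cluster 0 they were 56 higher genes (0.782% of those measured) and 88 lower (1.23%), and in cluster 1 they were 55 higher (1.03%) and 35 lower (0.656%). Cluster 2 had 29 higher (0.541%) and 31 lower (0.579%), and cluster 3 had 79 higher (1.41%) and 47 lower (0.84%). Only clusters 0 and 2 had more lower than higher genes, and this order depended on the scaling. With ratios centred on the median gene of the cluster, cluster 0 had 65 higher (0.908%) and 56 lower (0.782%). Cluster 2 then had 31 higher (0.579%) and 25 lower (0.467%). Cluster 4 had 31 higher (0.699%) and 24 lower (0.541%), cluster 5 had 92 higher (1.53%) and 53 lower (0.881%), and cluster 6 had 34 higher (0.711%) and 32 lower (0.67%). Cluster 7 had 64 higher (2.8%) and 23 lower (1.01%), and cluster 8 had 135 higher (2.46%) and 37 lower (0.675%). The ratios of clusters 7 and 8 were shifted upward as a whole: the share of measured genes above 0 was 60.1% in cluster 7 and 56.7% in cluster 8. It was 38.9% in cluster 0, 44.7% in cluster 1, 46.5% in cluster 2, 41.7% in cluster 3, 49.0% in cluster 4, 47.9% in cluster 5 and 46.3% in cluster 6. The median log2 ratio of all measured genes lay between -0.08 in cluster 0 and 0.10 in cluster 7.

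Most genes past 2-fold were so in 1 cluster. Among genes higher in the colonized library, 314 passed 2-fold in 1 cluster (40 of them measured in no other), 41 in 2, 12 in 3, and 2 in all 9. Among genes lower in it, 253 passed in 1 cluster (32 measured in no other), 34 in 2 and 6 in 3, and none passed in more than 6. A gene was called shared when it was measured in at least 6 clusters and passed 2-fold in the same direction in at least 2 in 3 of them. Of 4899 genes measured in at least 6 clusters, 14 were shared and higher (0.286%) and 2 were shared and lower (0.0408%). These genes were chosen by the ratios given for them, so their values are a description.

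Of the 14 shared higher genes, 8 were in the list of interferon-stimulated antiviral genes (57.1%), against 31 of the 4899 genes measured in at least 6 clusters (0.633%). They were Ifit1, Rtp4, Isg15, Ifit3, Usp18, Ifi27l2a, Ifi213 and Ms4a4c. Irf7 is in the list of interferon signalling genes. Ly6a, Plac8, Dtx1, Gadd45g and the immunoglobulin gene Igkc are in neither list. Both lists were written with earlier results of these data known, so this share is a description as well. In the Foxp3GFP libraries the same rule found 22 higher and 5 lower genes among 4503. Of the shared higher genes 12 were found in both strains, which is 85.7% of the Foxp3CNS1- list and 54.5% of the Foxp3GFP list. No lower gene was found in both. The shared lower genes of Foxp3CNS1-, Gm11707 and Gpm6b, were measured in 4 Foxp3GFP clusters each, under the 6 that the rule needs. Igkc and Ms4a4c were measured in 5 there. None of these genes could have met the rule in Foxp3GFP, so their absence from its list does not by itself show a difference between the strains. Over all clusters summed, Gm11707 had a log2 ratio of -1.39 (-1.64 to -1.15) in Foxp3CNS1- and -0.38 (-0.65 to -0.11) in Foxp3GFP. Gpm6b had -1.20 (-1.40 to -1.01) and -0.96 (-1.245 to -0.68). These differences between strains were not tested.

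**Figure D1:**
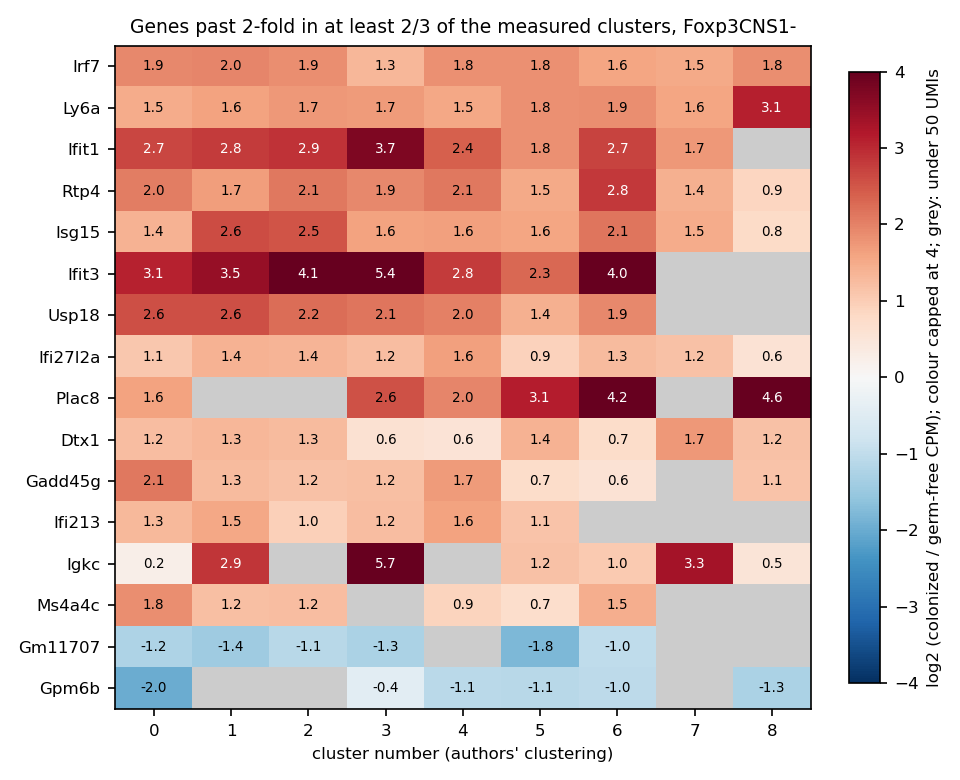
Log2 ratio of colonized over germ-free CPM of the 16 shared genes (rows) in each of the 9 clusters (columns) of Foxp3CNS1- mice, 1 library per group, with the colour scale capped at 4. Irf7 and Ly6a were past 2-fold in all 9 clusters, and Gm11707 and Gpm6b are the lower genes.

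Irf7, the transcription factor that amplifies the type I interferon response, was past 2-fold in 9 of 9 clusters. It had 22.9 CPM in germ-free and 87.3 in colonized cells of cluster 0, and 33.5 and 131 in the naive-like cluster 1. In the proliferating cluster 8 it had 8.91 and 32.1 CPM, on 5 germ-free UMIs, with a log2 ratio of 1.85 (0.56 to 3.51). The ratios were close to each other, from 1.32 in cluster 3, which started highest at 56.5 CPM, to 1.96 in cluster 1. With cluster 8 left aside, the germ-free clusters lay between 22.9 and 56.5 CPM and the colonized clusters between 87.3 and 141, without overlap. In Foxp3GFP Irf7 had a median log2 ratio of 1.92 over 8 measured clusters, all past 2-fold.

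The other members of this group carry out the antiviral response. Ifit1, which binds viral RNA at its cap, had 11.3 to 28.9 CPM in the germ-free and 73.8 to 161 CPM in the colonized cells of its 8 measured clusters, with a median log2 ratio of 2.68. Ifit3, its binding partner, had a median of 3.47 over 7 clusters, with 2.69 to 12.03 CPM in germ-free and 50.2 to 121 CPM in colonized cells. Its ratio in cluster 3 was 5.395 (3.53 to 8.45), on 2 germ-free against 233 colonized UMIs. In both genes the highest germ-free cluster lay below the lowest colonized one. Isg15, a ubiquitin-like protein attached to other proteins, had 30.3 to 102 CPM in germ-free and 143 to 310 CPM in colonized cells over 9 clusters. Its ratio was 2.595 in cluster 1 and 2.53 in cluster 2, the naive-like clusters, and 0.77 in cluster 8, where it had 83.7 germ-free CPM. Usp18, which removes Isg15 from proteins and restrains interferon receptor signalling, had a median of 2.14 over 7 clusters, with at most 18.8 CPM in germ-free and at least 48.0 in colonized cells. Rtp4, an interferon-induced chaperone of receptors, ran from 13.4 to 44.5 germ-free and from 29.2 to 157 colonized CPM, and its interval included 0 in cluster 8. The DNA-sensor family gene Ifi213 had 12.3 to 20.2 germ-free and 34.5 to 47.6 colonized CPM over 6 clusters. Ms4a4c, a membrane protein, had 8.71 to 36.3 CPM in germ-free clusters and up to 85.0 CPM in colonized ones, and the groups overlapped. Since colonized cells were deeper, all cells were also thinned to 1500 UMIs: 7 of the 14 shared higher genes were then still measured in enough clusters, and 6 of these met the rule.

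Promoters are shown of the 4 shared higher genes that hold the DNA element bound by interferon-activated factors, and of Irf7, which does not, for comparison. Ms4a4c, Plac8, Dtx1 and Gadd45g, also matched, held no match either and are not printed. Each is the 160 bases before the transcription start in RefSeq on GRCm38.p6, 5′ to 3′ on the strand of the gene. Capitals mark GAAANNGAAA or its reverse complement TTTCNNTTTC, the core of the interferon-stimulated response element. The positions are chr19:34640729-34640888 (plus strand) for Ifit1, chr19:34583369-34583528 (plus) for Ifit3, chr4:156200819-156200978 (minus) for Isg15, chr1:173599273-173599432 (minus) for Ifi213 and chr7:141266425-141266584 (minus) for Irf7.
Ifit1: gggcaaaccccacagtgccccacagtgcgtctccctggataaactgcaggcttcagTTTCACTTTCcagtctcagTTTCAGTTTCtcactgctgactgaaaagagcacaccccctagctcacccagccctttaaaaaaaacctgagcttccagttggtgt
Ifit3: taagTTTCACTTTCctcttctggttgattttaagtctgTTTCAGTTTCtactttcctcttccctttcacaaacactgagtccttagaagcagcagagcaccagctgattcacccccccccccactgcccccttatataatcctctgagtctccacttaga
Isg15: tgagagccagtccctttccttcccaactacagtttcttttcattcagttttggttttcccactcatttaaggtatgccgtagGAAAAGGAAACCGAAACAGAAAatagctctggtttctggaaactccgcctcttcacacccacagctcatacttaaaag
Ifi213: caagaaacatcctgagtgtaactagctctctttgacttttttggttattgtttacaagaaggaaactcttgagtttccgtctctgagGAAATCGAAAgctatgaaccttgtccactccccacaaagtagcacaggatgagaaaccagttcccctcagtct
Irf7: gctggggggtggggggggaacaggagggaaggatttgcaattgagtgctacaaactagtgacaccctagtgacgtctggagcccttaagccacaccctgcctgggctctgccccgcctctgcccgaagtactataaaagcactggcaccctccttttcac
Ifit1 and Ifit3 hold 2 matches each, Isg15 holds 3 that overlap, Ifi213 holds 1 and Irf7 none. Searched on both strands of windows of 300 bases (250 before and 50 after the start), the element was in 1131 of 32851 RefSeq windows (3.44%) and in 398 of the 10050 count-table genes that matched (3.96%). Among the shared higher genes 9 of 14 matched and 4 held it (44.4%), and among the interferon-stimulated list, given below, 22 of 40 did (55.0%). A match describes letters only. No match says that these letters are not in this window, and nothing about a factor.

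**Figure D2:**
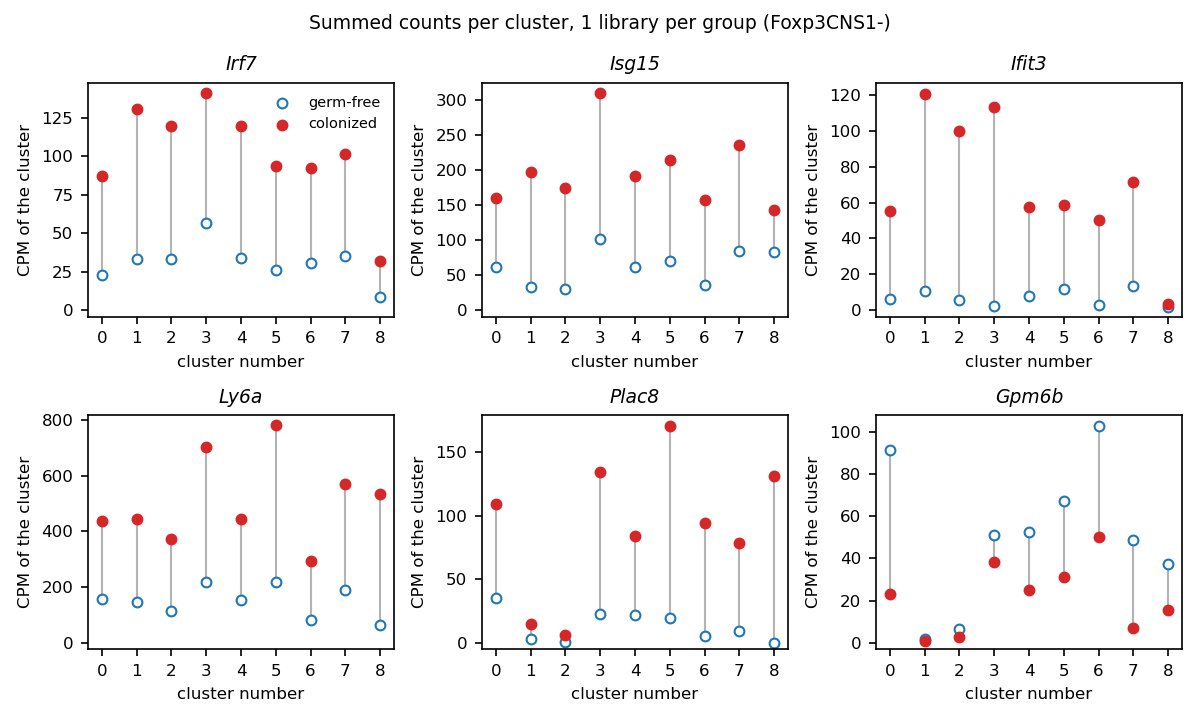
CPM of the cluster (y axis) against cluster number (x axis) for 6 genes of Foxp3CNS1- cells, with germ-free as open and colonized as filled points, 1 library each, clusters under 50 UMIs included. Irf7, Isg15, Ifit3, Ly6a and Plac8 were higher in colonized cells of each measured cluster, and Gpm6b was lower.

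Ly6a, the surface protein Sca-1, which interferons also induce, was past 2-fold in 9 of 9 clusters. Germ-free clusters had 62.4 to 219 CPM and colonized clusters 294.5 to 781, without overlap. Cluster 8 stood apart, with 62.4 against 534 CPM and a log2 ratio of 3.10 (2.615 to 3.63), while the other 8 clusters lay between 1.49 and 1.86. In Foxp3GFP the ratio of cluster 8 was again the highest, at 3.19. So Ly6a and the interferon genes Isg15, Rtp4 and Ifi27l2a did not have the same order over clusters: the latter had their lowest ratios in cluster 8, at 0.77, 0.86 and 0.58. Ifi27l2a, a small interferon-inducible membrane protein, was the most abundant shared gene, with 1411 against 3325 CPM in cluster 3.

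Plac8, a small cysteine-rich protein of leukocytes, was measured in 6 clusters and past 2-fold in all 6. It had 35.4 and 109 CPM in cluster 0 and 5.15 and 94.5 in cluster 6, on 5 germ-free UMIs. In cluster 8 it had 0 germ-free UMIs against 131 CPM in colonized cells. Its log2 ratio there was 4.62 with the 0 taken as 3 UMIs, and the interval ran from 4.31 upward. Its median of 2.85 includes cluster 8 at 4.62. Part of these UMIs lay in few cells: the 3 richest colonized cells held 37.3% of them in cluster 8 and 48.45% in cluster 4, against 11.9% in cluster 0. The naive-like clusters had 3 germ-free and 38 colonized Plac8 UMIs in cluster 1 and 1 and 9 in cluster 2, and were not measured.

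Dtx1, the Deltex1 ubiquitin ligase of Notch signalling, and Gadd45g, a stress-response protein that activates p38 signalling, completed the list outside the interferon genes. Dtx1 was past 2-fold in 6 of 9 clusters, with germ-free levels of 33.5 to 55.1 CPM and colonized levels of 78.4 to 148, and its ratio was lowest in cluster 4 at 0.55. Gadd45g was past 2-fold in 6 of 8, most in cluster 0 at 2.115, and its lowest ratio was 0.59 in cluster 6. Both had a like median in Foxp3GFP, 1.19 for Dtx1 and 1.56 for Gadd45g. Igkc, the kappa light chain of antibodies, was past 2-fold in 5 of 7 clusters, and in cluster 3 it had 53.8 and 2833 CPM. There 3 cells held 97.7% of the colonized UMIs, and in cluster 7 they held 95.16%. The median of 1.175 includes cluster 1, with 0 germ-free UMIs taken as 3, at 2.86 (interval from 2.51 upward).

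The shared lower genes were Gm11707, a predicted gene, and Gpm6b, a membrane glycoprotein of the proteolipid family. Gm11707 was lower in 6 of 6 measured clusters with a median of -1.24, but in Foxp3GFP it was past 2-fold in 0 of 4. Gpm6b had 91.4 germ-free and 22.9 colonized CPM in cluster 0, a log2 ratio of -2.00 (-2.40 to -1.61), and 103 and 50.2 CPM in cluster 6. In cluster 3 its interval included 0, at -0.41 (-0.99 to 0.19). Its Foxp3GFP median was -1.10 over 4 clusters. Both genes are low, with for instance 48 colonized UMIs of Gm11707 in cluster 0. Neither met the rule without immunoglobulin-rich cells, without the 3 richest cells of the gene, or in cells thinned to 1500 UMIs, where 0 of the 2 were still measured in enough clusters.

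At a fold of 1.5 the shared genes were 30 higher (0.612%) and 27 lower (0.551%), so the lists were of like length. All 30 higher genes also had a median above 0 in Foxp3GFP, and 3 of the 27 lower genes, Gstp1, Erh and the predicted gene Gm49980, did so too. The other lower genes were below 0 in Foxp3GFP, but some were close to it. Golga5, Tug1 and Gm11808 had medians of -0.03, -0.06 and -0.09 and passed 1.5-fold in 0 clusters there. Gm12840 passed it in 9 of 9, at -1.12. The higher genes added at this fold were antiviral genes such as Bst2, Zbp1 and Xaf1, the GTPase Iigp1, the calcium-binding proteins S100a6 and S100a4, and Socs3, an inhibitor of cytokine receptor signalling. Socs3 had 85.7 germ-free and 169 colonized CPM over all clusters and passed 1.5-fold in 8 of 9, from 1.53 in cluster 1 to 0.34 in cluster 3. The lower genes included Tox, a transcription factor of stimulated T cells, with 119 and 73.0 CPM. Dusp2, a phosphatase that acts on MAP kinases, had 146 and 84.1 CPM, and Cd83, a surface protein of activated lymphocytes, had 86.8 and 50.9. All 3 were lower in each measured cluster of both strains, with Foxp3GFP medians of -0.92, -0.68 and -1.04. The mitochondrial genes mt-Atp8 and mt-Nd3 were on the list too, with medians of -0.87 and -0.75.

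Gstp1, a glutathione transferase, was past 1.5-fold lower in 9 of 9 clusters, as were the predicted genes Gm47283 and Gm11808, and the Foxp3GFP libraries had the opposite direction for Gstp1. It had 169 germ-free and 90.45 colonized CPM over all clusters of Foxp3CNS1-, a log2 ratio of -0.91 (-1.01 to -0.80). In Foxp3GFP it had 118 and 143 CPM, a ratio of 0.28 (0.18 to 0.39), and was lower in 1 of 9 clusters. Of the 4 libraries the colonized Foxp3CNS1- one had the lowest level. Erh, a small nuclear protein, had a similar pattern, with 218 and 158 CPM in Foxp3CNS1- and 159 and 196 in Foxp3GFP.

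**Figure D3:**
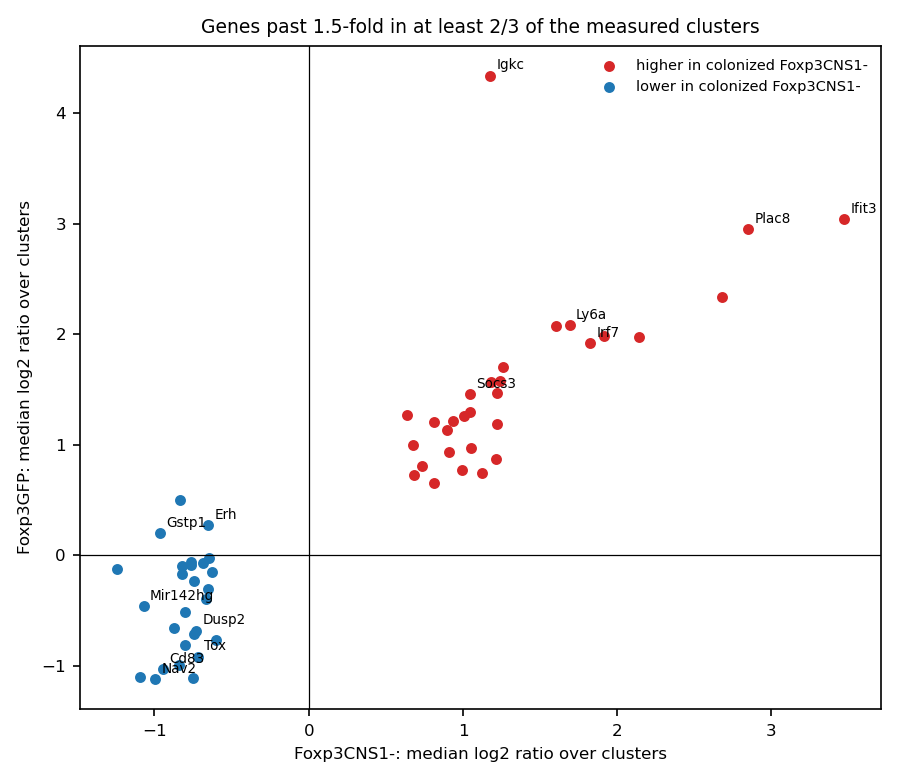
Median log2 ratio over clusters of each gene past 1.5-fold in at least 2 in 3 measured clusters of Foxp3CNS1- (x axis) against the same median in Foxp3GFP (y axis). All 30 higher genes lie above 0 on both axes, and of the 27 lower genes Gstp1, Erh and Gm49980 lie above 0 in Foxp3GFP and the others below.

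The interferon-stimulated antiviral list, 50 genes of which 47 had values and 40 were measured in a cluster, showed the pattern across all clusters. Counting each gene once per cluster, 264 of 283 values were higher in the colonized library and 19 lower. These include the values of the 8 shared genes in the list, which were chosen for being higher. Of all genes measured in a cluster, 38.9% (cluster 0) to 60.1% (cluster 7) were higher, a share that also stands beside the list counts below. Cluster 0 had 38 of 40 members higher with a median of 0.73, cluster 1 had 35 of 36 with 0.81, and cluster 2 had 32 of 32 with 0.82. Cluster 3 had 34 of 36 with 0.91, cluster 4 had 31 of 31 with 0.715, cluster 5 had 36 of 38 with 0.58, and cluster 6 had 28 of 30 with 0.67. Clusters 7 and 8 were lowest, with 12 of 17 at 0.17 and 18 of 23 at 0.32, although all their genes together were shifted upward. Past 2-fold were 15 members in cluster 0, 17 in cluster 1, 5 in cluster 7 and 1 in cluster 8, and no member was past 2-fold lower in any cluster. In Foxp3GFP the cluster medians ran from 0.59 to 1.375, and there too cluster 8 was lowest.

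Within the list the members differed widely. Here and in the other lists, members beyond the 3 with the most UMIs were singled out after their values were seen. The most abundant member, Shisa5, a membrane protein of the p53 response, was not part of the pattern: it was higher in 3 and lower in 6 clusters, with a median of -0.04. Ms4a4b, a membrane protein of T cells, had a median of 0.18, and Samhd1, which depletes nucleotides, had 0.25. Ifit3b had 2.835 over 4 clusters and Oasl2, a synthetase-like antiviral protein, 2.50 over 2. Ifit2, Rsad2, Cmpk2, Ifi44, Oasl1, Phf11d and Oas2 reached 50 UMIs in no cluster.

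The genes that carry the interferon signal moved little besides Irf7. In the interferon signalling list 75 of 127 values were higher, with a median of cluster medians of 0.19. Irf9, a DNA-binding factor of the response, was higher in 8 of 8 clusters, with a median of 0.46. The receptor genes Ifnar1 and Ifnar2 had medians of 0.14 and 0.02. Ifngr2, a chain of the interferon-gamma receptor, was lower in 6 of 7 clusters, for instance at 53.8 and 30.1 CPM in cluster 3. Jak2, the kinase bound to that receptor, had 31.6 and 14.97 CPM in cluster 0, a log2 ratio of -1.08 (-1.64 to -0.51), and was lower in the 3 clusters where it was measured.

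Lists tied to interferon-gamma had smaller differences. The GBP and IRG GTPases, which attack intracellular pathogens, were higher in 81 of 97 values, with cluster medians from 0.06 in cluster 8 to 0.55 in cluster 1. Gbp2 was highest in cluster 0, with 64.8 and 154 CPM. The immunoproteasome list was higher in 39 of 45 values with a median of cluster medians of 0.14, and MHC class I and peptide loading in 90 of 134 with 0.03. In Foxp3GFP these 3 lists had 0.65, 0.32 and 0.27.

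**Figure D4:**
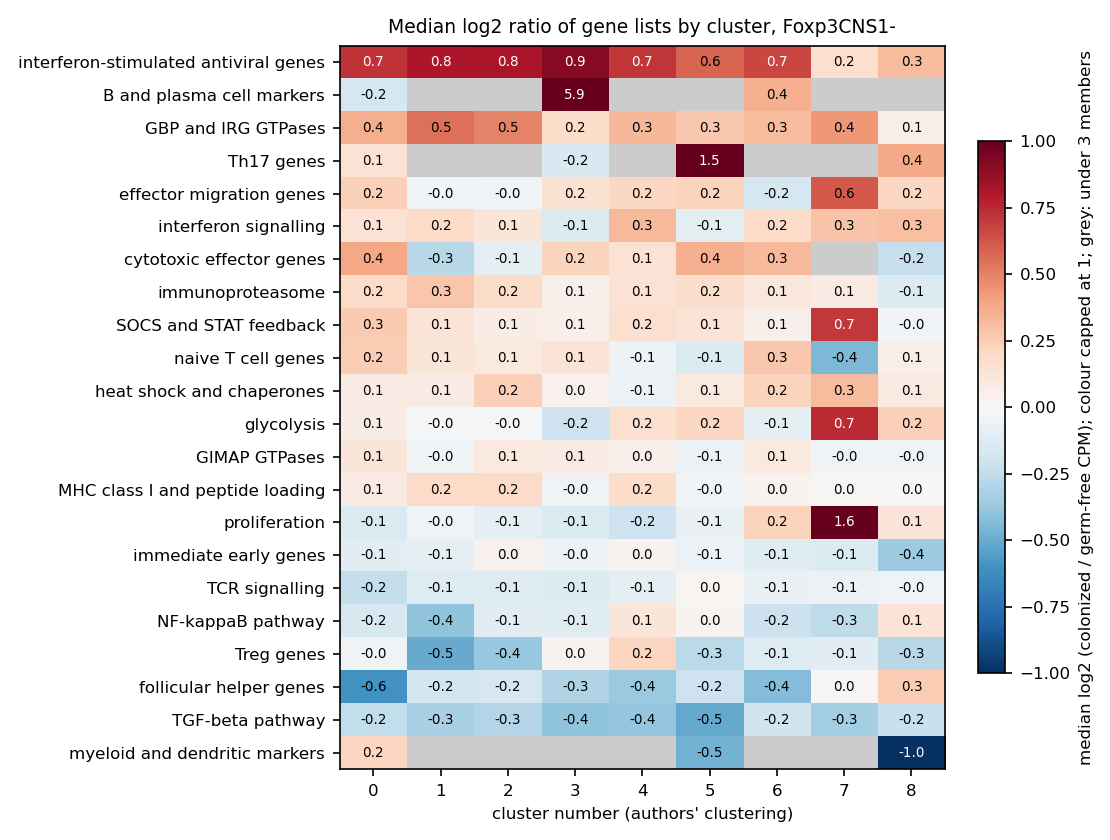
Median log2 ratio of the measured members of each gene list (rows) in each cluster (columns), Foxp3CNS1-, for lists with at least 3 measured members, with the colour scale capped at 1. The interferon-stimulated list was above 0 and the TGF-beta list below 0 in all 9 clusters.

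Genes of the TGF-beta pathway, the signal that CNS1 responds to, were slightly lower throughout. Of 72 values 63 were lower in the colonized library, and the median was below 0 in all 9 clusters, from -0.20 in cluster 6 to -0.51 in cluster 5. All measured genes had medians from -0.08 in cluster 0 to 0.10 in cluster 7, and the list median was below theirs in all 9 clusters. In Foxp3GFP 13 of 72 values were higher, and the median of cluster medians was -0.41 against -0.32 here. The ligand Tgfb1 was lower in 8 of 9 clusters with a median of -0.22. The receptor Tgfbr1 was lower in 9 of 9, with 71.0 germ-free and 31.9 colonized CPM in cluster 5 at a log2 ratio of -1.155 (-1.65 to -0.65). It had 183 and 122 CPM in cluster 3 at -0.585 (-0.89 to -0.27), while the interval included 0 in clusters 2, 4, 7 and 8. Tgfbr2, its partner, was lower in 7 of 8 clusters, and Lrrc32, which holds latent TGF-beta on the Treg surface, in 5 of 7.

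The SMAD proteins carry the TGF-beta signal to the nucleus, and Smad7 and Skil are its feedback inhibitors. Smad7 was lower in 7 of 7 measured clusters and Skil in 9 of 9. In cluster 5 Smad7 had 64.97 and 32.95 CPM and Skil 60.2 and 33.7. Smad2 was lower in 6 of 8 and Smad4 in 4 of 4. Smad3 was measured in cluster 0 alone and was higher there, at 0.68, but with an interval that included 0. Of all these values 4 passed 2-fold, Tgfbr1 in clusters 1 and 5, Smad4 in cluster 2 and Skil in cluster 8, so the pattern was one of direction over many small differences.

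Gzmb, Gzma and Ccr2 passed 2-fold in 4 or 5 clusters, among them the Treg-like, effector/memory-like and proliferating ones and cluster 3. They were singled out after their values were seen, and their lists were mixed in direction. The cytotoxic list was higher in 27 of 47 values, and its most abundant member Ctsw, a protease of cytotoxic cells, was lower in 9 of 9 clusters with a median of -0.41. In the effector migration list, higher in 78 of 126 values, Ccr9 was lower in 6 of 6 clusters and Ahnak in 5 of 5. Gzmb, the protease granzyme B of cytotoxic granules, had 5.99 and 66.1 CPM in cluster 0, 6.72 and 168 in cluster 3, and 7.22 and 160 in cluster 5. In cluster 8 it had 1 germ-free against 254 colonized UMIs, a log2 ratio of 5.87 (3.38 to 11.18). The 3 richest colonized cells held 26.9% of its UMIs in cluster 0, 25.1% in cluster 3, 54.4% in cluster 5 and 43.7% in cluster 8. Ccr2, a chemokine receptor of migrating effector cells, had 7.07 and 29.9 CPM in cluster 0, 16.8 and 94.9 in cluster 5, and 1 against 116 UMIs in cluster 3. Here 3 cells held 17.0% of the colonized UMIs in cluster 0 and 8.30% in cluster 5. Gzma rested on fewer cells, as 3 of them held 78.4% of its UMIs in cluster 5. Ccl5, a chemokine of the same cells, had ratios whose intervals included 0 in all 9 clusters, such as 0.22 (-0.04 to 0.49) in cluster 3.

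The heat shock gene Hspa1a, a marker of stress during handling as well as in the animal, differed in the same direction. It had 1 against 59 UMIs in cluster 0, 0 against 81 in cluster 1, 1 against 51 in cluster 2 and 0 against 54 in cluster 5, and did not reach 50 UMIs elsewhere. Its heat shock and chaperone list had a median of cluster medians of 0.09. Without the cells that held an Hspa1a or Hspa1b UMI, 14 genes were shared and higher, 13 of them in common with the full set, and both lower genes remained.

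A gene was called a one-cluster gene when it passed 2-fold in 1 cluster and in none of at least 3 other measured clusters in that direction. Its ratio also had to differ from that of the other clusters summed by at least 1 on the log2 scale, with a counting interval that excluded 0. The leading genes of the cluster were left out. Of 43296 combinations of a gene and a cluster, 101 were called higher (0.233%) and 89 lower (0.206%). Cluster 8 had the most, with 47 higher and 12 lower, and clusters 2, 4 and 6 had 2 higher genes each.

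The one-cluster genes were set against the Foxp3GFP libraries and against cells thinned to an equal number of UMIs per cell, with unequal cell numbers left as they were. In Foxp3GFP 69 of the higher ones could be measured, 43 had the same direction (62.3%) and 6 passed 2-fold (8.7%). Of the lower ones 61 could be measured, 45 had the same direction (73.8%) and 6 passed 2-fold (9.84%). Over all 39506 combinations measured in both strains, 59.7% had the same direction and 1.69% were past 2-fold, in either direction, in Foxp3GFP. Thinned to 1500 UMIs per cell, 10 of the 101 higher and 13 of the 89 lower genes still had 50 UMIs. All of these kept their direction, 6 and 5 were still past 2-fold, and 3 and 3 met the whole rule.

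**Figure D5:**
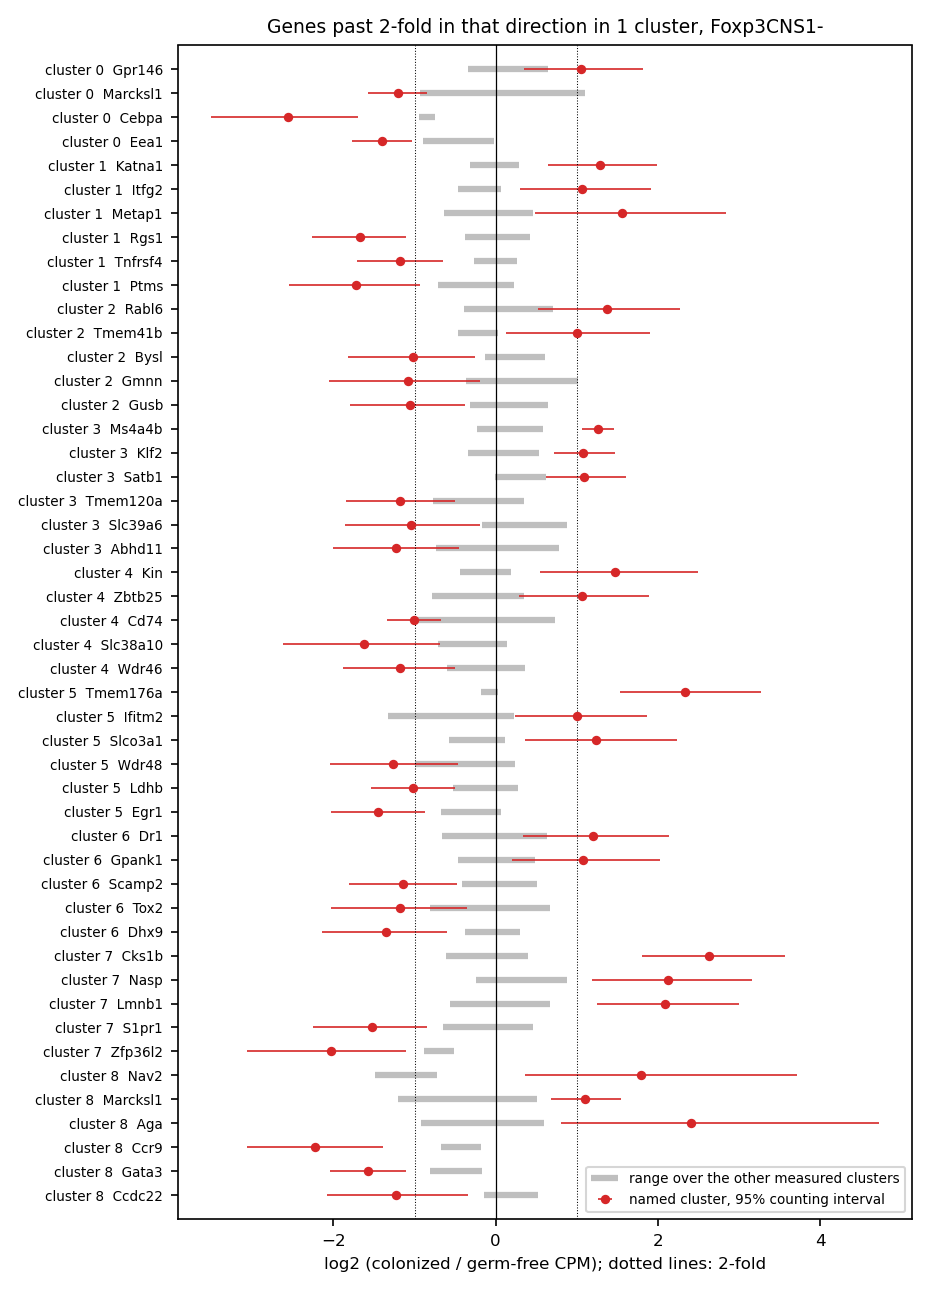
Log2 ratio of colonized over germ-free CPM (x axis) of the named one-cluster genes in their cluster (points, with 95% counting intervals) and the range over the other measured clusters (grey bars), Foxp3CNS1-. Tmem176a in cluster 5 lies at 2.34 and Cebpa in cluster 0 at -2.56, both outside the range of the other clusters.

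In the Treg-like cluster 0 the one-cluster genes were mostly lower, 9 against 1. Cebpa, a transcription factor best known from myeloid cells, had 25.0 and 4.24 CPM, a log2 ratio of -2.56, and Foxp3GFP had -2.48. Marcksl1, a protein of the cell cortex, had 75.6 and 32.8 CPM, and Eea1, a tether of early endosomes, had 78.9 and 29.9. All 7 lower genes measured in Foxp3GFP were lower there too. Follicular helper (Tfh) genes were lower in the same cluster, with 1 of 13 higher and a median of -0.61. Of all genes measured there 38.9% were higher. The list was not lower in cluster 0 alone: cluster 3 had 1 of 13 higher with -0.30, and cluster 6 had 1 of 12 with -0.43. Over all clusters 66 of its 96 values were lower. Its most abundant members, Sh2d1a and Slamf6, went the other way and were higher in 6 and 7 of 9 clusters. In cluster 0 Il4, the cytokine of Tfh cells, had 84.9 and 14.1 CPM, Sostdc1 had 143 and 30.8, and Pdcd1, the receptor PD-1, had 117.5 and 55.1. Il4 was also past 2-fold lower in clusters 4, 5 and 6, and Foxp3GFP had -1.11 for it in cluster 0. In Foxp3GFP the list median of cluster 0 was -0.53. Whether cells of this kind were fewer in the colonized part of the cluster cannot be told apart from less RNA per cell.

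In the naive-like cluster 1 genes of Treg and activated cells were lower. Rgs1, a brake on chemokine receptors, had 57.1 and 17.8 CPM, a log2 ratio of -1.68, and Tnfrsf4, the costimulatory receptor OX40, had 55.25 and 24.4. Among the Treg genes 1 of 9 was higher, with a median of -0.50. Ikzf2, the transcription factor Helios, had 29.9 and 14.7 CPM and Il2ra, the IL-2 receptor alpha chain, 23.55 and 10.1. In cluster 2 the Treg list had 1 of 13 higher and -0.38, whereas in Foxp3GFP cluster 2 had 0.41 and cluster 1 had -0.49. Of the 12 higher genes of cluster 1, 8 had the same direction in Foxp3GFP, and of the 11 lower ones measured there 9 did. The named higher genes, Katna1 with 20.8 and 50.8 CPM, Itfg2 and Metap1, had Foxp3GFP ratios of -0.29, -0.38 and 0.22. In cluster 2 Rabl6 had 9.75 and 25.25 CPM and Tmem41b, a lipid scramblase, 10.3 and 20.6, and both were below 0 in Foxp3GFP. Gusb, a lysosomal enzyme, had 34.7 and 16.6 CPM and Gmnn, the replication inhibitor geminin, 21.1 and 9.97. Of the 11 lower genes of cluster 2, 4 had the same direction in Foxp3GFP.

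Cluster 3 had 11 higher and 9 lower one-cluster genes. Its naive list as a whole had 10 of 13 members higher with a median of 0.14, below cluster 6 at 0.27 and cluster 0 at 0.25. Klf2, a transcription factor that keeps T cells circulating, had 95.5 and 202 CPM, and Satb1, a chromatin organizer of thymocytes and naive cells, had 56.5 and 120.5. Ms4a4b had 325 and 778 CPM. In Foxp3GFP their ratios in cluster 3 were 0.68, 1.14 and 1.56. Klf2 in cluster 3 remained far below its level in cluster 1, which was 1014 and 1084 CPM. Tmem120a, Slc39a6 and Abhd11 were lower, each on under 60 CPM, and Foxp3GFP had -0.03, 0.58 and 0.12 for them. Plasma cell genes also differed here: Jchain, the joining chain of antibodies, had 0 germ-free against 1587 colonized UMIs, of which 3 cells held 99.4%. The B and plasma cell list had a median of 5.86 in this cluster, and -0.08 without cells holding at least 10 immunoglobulin UMIs.

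Clusters 4 and 6 had 2 higher one-cluster genes each. In cluster 4 Kin had 13.4 and 37.0 CPM and Zbtb25, a zinc finger protein, 20.55 and 43.1, while Slc38a10, a transporter, had 37.0 and 12.1 and Wdr46, a ribosome assembly factor, 56.5 and 25.0. The 2 higher genes and 3 of 5 lower genes had the same direction in Foxp3GFP, and none passed 2-fold there. Cd74, the invariant chain of MHC class II, had 209 and 104 CPM in cluster 4, a ratio of -1.001 at the very edge of the rule. Clusters 5 and 8 had -0.98 and -0.87 for it, just outside, and 55.2% of its germ-free UMIs in cluster 4 lay in 3 cells. Among cells without a Foxp3 UMI its ratio there was 0.0072 on the log2 scale. In cluster 6 Dr1, a repressor of transcription, had 15.4 and 35.4 CPM. Gpank1 had 15.4 and 32.5 CPM there, and in Foxp3GFP its ratio was -0.66. Scamp2, a protein of secretory vesicles, was lower with 53.5 and 24.4 CPM, and Dhx9, an RNA helicase, with 45.3 and 17.7. Tox2, a transcription factor of Tfh cells, had 35.0 and 15.5 CPM and -0.78 in Foxp3GFP.

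The effector/memory-like cluster 5 had higher levels of genes of Th17 cells, the T cells that make IL-17 at mucosal surfaces. Tmem176a, a membrane protein high in such cells, had 15.6 and 79.2 CPM, a log2 ratio of 2.34 (1.54 to 3.27), against 0.09 in the other clusters summed. All 6 measured Th17 genes were higher in this cluster, with a median of 1.54. Ltb4r1, a leukotriene receptor, had 3 against 69 UMIs, a ratio of 2.78 (1.17 to 5.09). Ccr6, the receptor for CCL20, had 10.8 and 32.6 CPM, and Rora, a transcription factor of the lineage, had 18.05 and 45.85. Ccr6 was also past 2-fold in clusters 0 and 8. In Foxp3GFP the median of this list in cluster 5 was 0.43 and Tmem176a had 0.49. Il22, a cytokine of these cells, had 0 germ-free against 72 colonized UMIs in cluster 8. Lower in cluster 5 were Egr1, an immediate early gene, with 57.75 and 21.1 CPM, Ldhb, a lactate dehydrogenase subunit, and Wdr48.

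Cluster 7, the smallest, had higher levels of genes of dividing cells, while 4 of 15 naive genes were higher, with a median of -0.45. All 12 measured proliferation genes were higher, with a median of 1.65. Stmn1, which frees tubulin for the spindle, had 102 and 393 CPM, and Cks1b, a cyclin-dependent kinase partner, had 31.03 and 192. All 10 glycolysis genes and all 12 effector migration genes were higher as well, with medians of 0.75 and 0.61, among them Lgals1 with 399 and 1331 CPM. Much of this lay in few cells: 3 colonized cells held 54.1% of the Stmn1 UMIs and 66.4% of those of Birc5, a mitotic survival protein. When the cells with UMIs over the 98th percentile were left out, the proliferation median was 0.17, the glycolysis median 0.21 and the migration median 0.40. The lower genes were spread over more cells: S1pr1, the receptor by which T cells leave lymph nodes, had 159.6 and 55.5 CPM, with 18.1% and 29.2% of the UMIs in 3 cells. Zfp36l2, which destabilizes mRNA, had 113 and 27.7 CPM. In Foxp3GFP 12 of 13 higher and 8 of 9 lower genes of cluster 7 had the same direction.

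Cluster 8 had the deepest cells and the most one-cluster genes. Nav2, a cytoskeletal protein, had 7.13 and 24.7 CPM in cluster 8, on 4 germ-free UMIs, while it was lower in the other 5 measured clusters. Marcksl1 had 92.6 and 199 CPM, the opposite of cluster 0. Aga, a lysosomal enzyme, had 5.34 and 28.4 CPM, on 3 germ-free UMIs. Of 27 higher genes measured in Foxp3GFP, 12 had the same direction (44.4%) and 1 passed 2-fold. Of the 8 lower genes measured there, 6 had the same direction and 3 passed 2-fold. Gata3, the transcription factor of Th2 cells, had 118 and 39.5 CPM and was lower in every cluster, most in this one at -1.575. Ccr9, a receptor that guides T cells to the small intestine, had 48.1 and 10.3 CPM, with 66.7% of its 27 germ-free UMIs in 3 cells. Ccdc22 had 33.85 and 14.4 CPM.

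Foxp3 itself had no shared direction. It had 112 and 138 CPM in the Treg-like cluster 0, a log2 ratio of 0.31 (0.07 to 0.55), and 250 and 229 in cluster 3, where the interval included 0. In the naive-like cluster 2 it had 35.2 and 20.6 CPM, a ratio of -0.77 (-1.44 to -0.14), and in cluster 1 it had 24 and 25 UMIs and was not measured. It was above 0 in 3 and below 0 in 5 of the 8 measured clusters, and in clusters 4 to 8 each interval included 0. In Foxp3GFP the ratio of cluster 2 was 0.40. The order of the levels over clusters was led by cluster 3 in both libraries. GFP-positive and GFP-negative cells were sorted at 50% each into both libraries. As far as GFP marks cells that express Foxp3, the sort set their share, but not the Foxp3 RNA per cell. Cells with a Foxp3 UMI were 16.0% of the germ-free and 19.9% of the more deeply sequenced colonized cells. With the share set by the sort and 1 library per group, these values cannot say whether colonization changed Foxp3.

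The remaining lists had medians near 0 or were measured in few clusters. The TCR signalling list was lower in 102 of 153 values and below 0 in 8 of 9 clusters, from -0.23 in cluster 0, where 1 of 18 genes was higher, to 0.02 in cluster 5. All genes measured in cluster 0 had a median of -0.08, with 38.9% higher. The immediate early list had a median of cluster medians of -0.09, the NF-kappaB list -0.12, and the SOCS and STAT feedback list 0.13, with 0.71 in cluster 7. The naive list had 0.10, with -0.45 in cluster 7, the GIMAP GTPases 0.05, and the cytotoxic list 0.18 over 8 clusters. The Th2 list had 3 measured members and was lower in 15 of 17 values. Myeloid and dendritic markers had -0.47 over 3 clusters, with 13 of 26 values higher. The CD8, NK and innate list had 3 measured members in cluster 3 alone, at -0.03. The red cell and stroma list had fewer than 3 in every cluster, with 4 of 14 values higher.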

How the data were processed

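Single CD4 T cells were profiled in 4 libraries, of which the 2 Foxp3CNS1- libraries were compared. The authors deposited raw counts (UMIs) of 13314 genes in 17478 cells, all whole numbers, and a cell table with cluster numbers and their filter. Cell Ranger, Scanpy 1.5.1 and the mm10 build are named per the submitters' processing notes; for the version of Cell Ranger and the cell and gene filters nothing was stated (not given in the sources used here). Of the cells, 227 had no row in the cell table and 303 were removed by the authors, which left 16948. Doublets were neither called nor removed here. The 2 Foxp3CNS1- libraries shared 33 barcodes, and 157 were in more than 1 of the 4 libraries. Another 4 columns of cell annotation stayed unused.

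Counts were summed per library and cluster and divided by the library's total in that cluster (CPM). With 1 library per group, called means past 2-fold, and exact intervals at the 95% level cover counting error only. Against 0 UMIs the ratio was taken at a floor of 3 UMIs per library. The members, the 25 gene lists and the rules were chosen with earlier results of these data known. Genes were named by rule: up to 15 higher and 12 lower shared genes, up to 3 one-cluster genes per cluster and direction, whose difference from the other clusters was farthest from 0 by its interval bound, and the 3 members of a list with most UMIs. T cell receptor, immunoglobulin, ribosomal, mitochondrial and predicted genes were left out of the one-cluster ranking. Other genes were singled out after their values were seen, and some genes within the rule are not reported here. Results were recomputed under 16 other settings and 1 that was added after seeing the data. Calculations used Python 3.11.15, numpy 2.4.6, pandas 2.3.3, scipy 1.17.1 and matplotlib 3.10.9 and were tested on simulated data. Promoters came from RefSeq on GRCm38.p6.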

Additional observations from a re-analysis of the deposited data

Results flagged for a closer look

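Gstp1 and Erh had opposite directions in the strains over all clusters summed: Gstp1 had a log2 ratio of -0.91 in Foxp3CNS1- and 0.28 in Foxp3GFP, and Erh had -0.47 and 0.30. Gpank1 in cluster 6 had 1.07 in Foxp3CNS1- and -0.66 in Foxp3GFP. With 1 library per group these differences between strains were not tested. Cluster 9, which was too small for the comparison, with 17 germ-free and 24 colonized cells, also had a higher summed level of the interferon-stimulated antiviral list in colonized cells, at 6156 and 7375 CPM and a log2 ratio of 0.26 (0.042 to 0.48, counting error only).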

How the results depend on the processing

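Over the 9 clusters, 575 gene values were past 2-fold higher and 370 lower, with 14 and 2 shared genes and 101 and 89 one-cluster genes; the values below keep that order. At 20 UMIs per gene and cluster they were 1777 and 1893, 22 and 8, and 340 and 400, and at 200 UMIs 121 and 30, 4 and 0, and 6 and 2. At a fold of 1.5 they were 2190 and 2779 past the fold and 30 and 27 shared, and at a fold of 3 they were 181 and 31, 8 and 0, and 28 and 10. In cells thinned to 1500 UMIs, which leaves out 390 germ-free and 261 colonized cells and most UMIs, they were 329 and 163, 8 and 1, and 58 and 34. Without the 3 cells with most UMIs of each gene, which takes a larger part of the smaller count, 1014 and 228 were past 2-fold, no lower gene was shared (0), and 243 one-cluster genes were higher. Shared lower genes numbered 1 with equal weight per cell, 0 without cells of at least 10 immunoglobulin UMIs, 1 in cells without a Foxp3 UMI, and 5 when 1 in 2 measured clusters sufficed. When every measured cluster had to pass, 6 genes were shared and higher and 1 lower. Against the median of the other clusters 161 one-cluster genes were higher.

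Cd74 in cluster 4 reversed to 0.0072 in cells without a Foxp3 UMI. Of the values of named genes no other changed sign: of 160 values of shared genes under alternatives 6 moved beyond their interval, and of 410 of one-cluster genes 10 moved. The interferon-stimulated list stayed above 0 in all 12 alternatives computed for it in each cluster except cluster 7, where it was above 0 in 10, with -0.09 at 200 UMIs. The TGF-beta list stayed below 0 except in cluster 8, at 0.15 without the 3 richest cells, and the B and plasma list of cluster 3 went to -0.08 without immunoglobulin-rich cells. Leaving out cells whose barcode is in more than 1 library, an alternative chosen after seeing the data, kept all 14 shared higher genes. The 1 shared lower gene of the thinned cells was neither Gm11707 nor Gpm6b. No paired analysis was possible because each group is 1 library, and no library could be left out. Of the one-cluster genes, 10 higher and 13 lower still had 50 UMIs in a thinned cluster.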
